A study of Mus musculus with 46 samples.

Results

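The untreated distal small intestine was compared with the untreated colon, to describe which genes differ between neighbouring organs in mice that received no drug. The comparison holds 6 of the 45 bulk libraries of the series (46 samples in all): the 3 control libraries of distal small intestine and the 3 control libraries of colon from the 4-week experiment. They were chosen by their labels alone, and no measured value entered the choice. All 6 came from male C57BL/6J mice labelled Control after 4 weeks, with no allele or transgene named. The sources used here do not give the age of the mice, what the controls drank or the stretch of colon that was cut. The series was made to study metformin and imeglimin, 2 oral glucose-lowering drugs, and none of the treated libraries were used. Total RNA was taken from intestinal tissue and polyadenylated RNA was sequenced, so every cell type of the piece contributes.

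The small intestine digests and absorbs, and its last stretch is known for taking bile acids and vitamin B12 back into the body. Its crypts hold Paneth cells, which secrete alpha-defensins and lysozyme. The colon has no villi, recovers salt and water, takes up the short-chain fatty acids made by bacteria and is covered by a thick mucus layer. Hox transcription factors mark position along the body axis, and the genes at one end of each cluster are used furthest towards the tail.

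The joined libraries held 31659681 to 43940504 counts over 45751 gene symbols. Values below are CPM, counts relative to the TMM-scaled total of the library, and the values of a group are given in the order library 1, 2, 3. Colon library 3 carried pancreatic transcripts, and 59 genes that took 5.24% of its counts, and at most 0.0339% of any other library, were left out. Some of the 59 were also present elsewhere. Relative to plain library totals, Sycn reached 363 CPM in another 4-week colon library, and Clps 70.7 and Pnliprp2 87.7 CPM in a distal one. Differences between the organs in such genes are not described. The first principal component held 80.5% of the variance and separated the organs, while the second, with 7.19%, separated distal libraries 1 and 3. Colon libraries were close to each other (Pearson's r of log2 CPM across genes 0.982 to 0.985), distal libraries less so (0.965 to 0.972), and libraries of different organs had 0.846 to 0.855. Distal library 1 held less RNA of fat absorption genes (summed level 8050 CPM, against 20500 and 22000) and more of Paneth, endothelial and plasma cell genes than the other two. Distal library 2 held the most adipocyte RNA and distal library 3 most of the B cell follicle RNA (196 CPM, against 32.2 and 25.4). Every distal library held bile acid transporters and no Hoxb13, and every colon library held Hoxb13 and no Fgf15, as the tissue labels would have it. Results that rest on 1 library are given with and without it. Nothing in the labels states that a replicate is a mouse of its own, or that both organs were cut from the same mice. The p-values therefore speak to the variation among these 6 libraries, which may be technical. The organs were counted in separate tables, and organ and table cannot be told apart.

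Of 18297 genes tested, 7440 (40.7%) passed an adjusted p of 0.05 in the edgeR quasi-likelihood test, 3543 (19.4%) higher in colon and 3897 (21.3%) higher in distal small intestine. With a fold change of at least 2 as well, 4043 genes (22.1%) were called, 1815 (9.92%) higher in colon and 2228 (12.2%) higher in distal small intestine. The groups did not overlap for 10055 genes (55%). These shares are the background against which the counts for gene groups below are to be read, and the median log2 fold change over all genes tested was -0.000177. Fold changes are colon over distal small intestine on a log2 scale, with a standard error (SE), so negative values are higher in distal small intestine. The split depends on the scaling: with library totals alone in place of TMM, 66.0% of the calls were higher in colon, against 47.6%, and with the levels set relative to 12 epithelial markers 84.6% were. Those scalings moved the median of all genes by 0.23 and 0.63. Fewer cells of a type and less RNA per cell cannot be told apart in tissue RNA, and the 42 gene groups were read as counts and medians, with no test of a group.

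**Figure D1:**
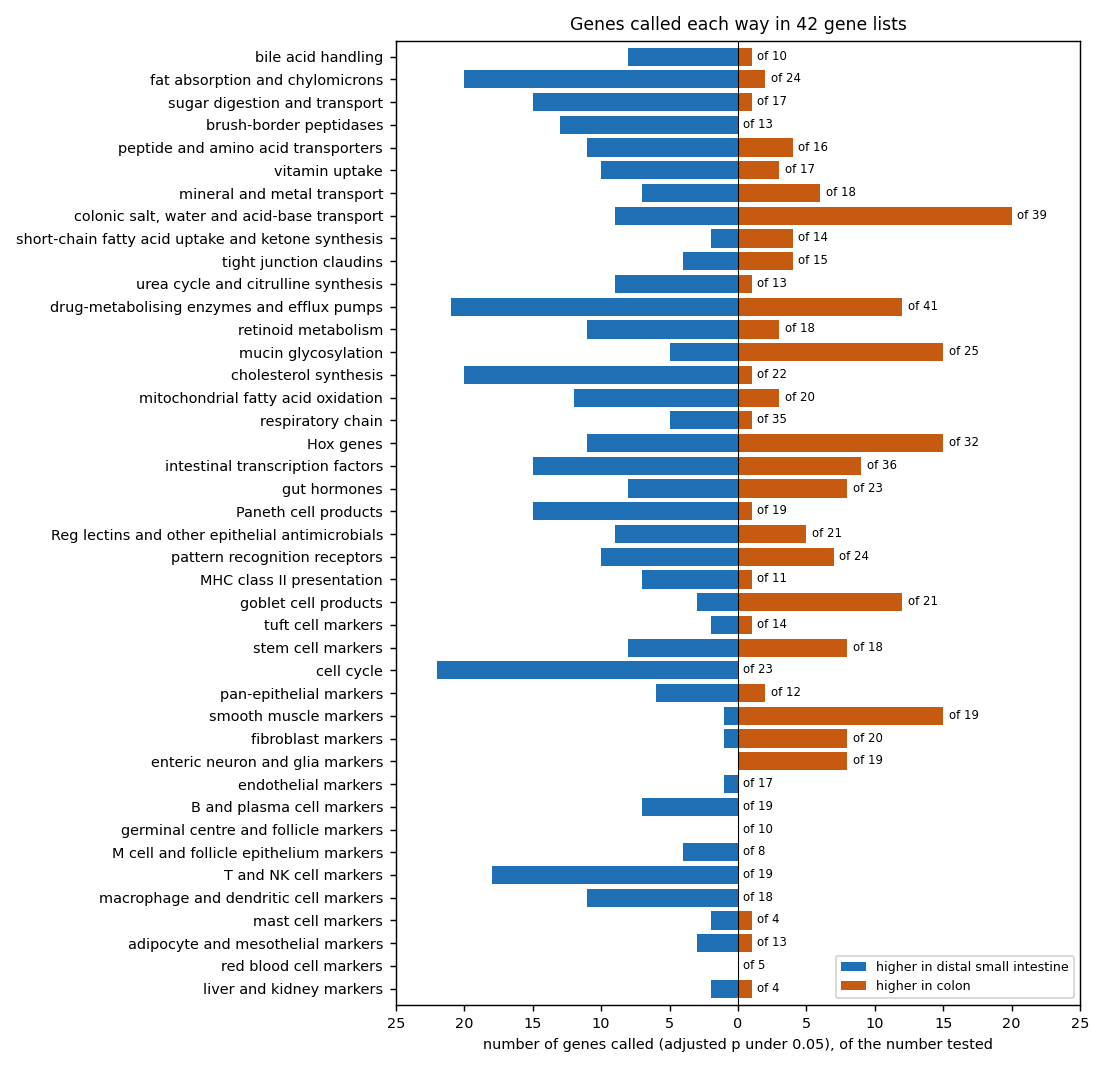
Number of genes called at an adjusted p under 0.05 in each of 42 gene lists, with genes higher in distal small intestine to the left of 0 and genes higher in colon to the right. The number after each bar is how many of the list were tested. Brush-border peptidases, T cell markers and cell cycle genes lie on the left, with 13 of 13, 18 of 19 and 22 of 23 genes, and smooth muscle and mucin glycosylation genes mostly on the right.

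Bile acid handling genes were mostly higher in distal small intestine. Of 10 genes tested, 8 were higher in distal small intestine, all at least 2-fold, and 1 was higher in colon, with a median log2 fold change of -5.34. Fabp6, the bile acid binding protein of the enterocyte, was at 3792, 4408 and 3722 CPM in distal small intestine and 0.991, 1.104 and 0.758 CPM in colon. No colon library reached 2 CPM, and the fold change was -12.03 ± 0.3 (adjusted p = 3.68e-06). Slc10a2, the transporter that takes bile acids in from the lumen, was at 976, 2000 and 1629 CPM in distal small intestine and 4.48, 7.28 and 11.1 CPM in colon (-7.65 ± 0.49, adjusted p = 4.35e-05). Slc51a and Slc51b form the pair that releases bile acids towards the blood. Slc51a was at 833, 1349 and 1131 CPM in distal small intestine and 0.473, 0.34 and 0.178 CPM in colon, and Slc51b at 212, 333 and 257 CPM in distal small intestine and 7.098, 7.28 and 7.09 CPM in colon. Both were higher in every distal library than in any colon library, with log2 fold changes of -11.700 ± 0.41 and -5.22 ± 0.2.

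Fgf15, the hormone that the bile acid receptor FXR induces in enterocytes, was at 43.2, 82.97 and 114 CPM in the distal libraries and had no count in colon. Against a floor of 3 counts over the colon group it was at least 3180-fold higher in distal small intestine (adjusted p = 0.000216). Nr1h4, which encodes FXR, was also called higher there (-2.46, adjusted p = 2.78e-05). The export pump Abcc3 went the other way, with 107, 129 and 98.4 CPM in distal small intestine and 204, 232 and 178 CPM in colon (0.87 ± 0.15, adjusted p = 0.00306). Gpbar1, a bile acid receptor of the cell surface, did not pass the test (-0.28, adjusted p = 0.755), and Nr0b2 and Slc27a5 were too low to be tested.

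Fat absorption and chylomicron assembly leaned the same way: 20 of 24 genes were higher in distal small intestine and 2, Plin2 and Scarb1, in colon (median -4.33). Mttp, which loads lipid onto nascent chylomicrons, was at 856, 1457 and 1149 CPM in distal small intestine and 3.898, 3.26 and 3.79 CPM in colon (-8.302 ± 0.28, adjusted p = 5.81e-06). Apob, the chylomicron scaffold, was at 1366, 5140 and 5662 CPM in distal small intestine and 173, 146 and 168 CPM in colon (-4.64 ± 0.55, adjusted p = 0.000657), with distal library 1 lowest and no overlap. Mogat2, which rebuilds triglyceride in the enterocyte, was at 206, 317 and 272 CPM in distal small intestine and 0.248, 0.566 and 0.401 CPM in colon. The lipid droplet coat gene Plin2 was the reverse, with 61.7, 71.02 and 69.2 CPM in distal small intestine and 155, 136 and 172 CPM in colon (1.199 ± 0.12, adjusted p = 0.000277).

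Distal library 1 had the lowest level of the chylomicron genes. Apoa1, the main protein of high-density lipoprotein, was at 2035, 5163 and 6204 CPM in distal small intestine and 0.18, 0 and 1.47 CPM in colon. Colon library 3, which carried the pancreatic RNA, had the highest colon value, and leaving it out moved the fold change from -12.92 to -15.4. Fabp2, the intestinal fatty acid binding protein, was at 1069, 2976 and 3419 CPM in distal small intestine and 25.9, 83.98 and 32.2 CPM in colon, with a fold change of -5.72 ± 0.68 (adjusted p = 0.000664) that became -6.42 without colon library 2. Its close relative Fabp1 was at 25.5 ± 13.7 CPM (mean ± SD, n = 3) in distal small intestine and 0.276 ± 0.304 CPM in colon, and was called too (-6.496, adjusted p = 0.0011). Its fold change was -5.89 without colon library 1 and -7.9 without colon library 3.

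Sugar digestion and transport held 15 genes higher in distal small intestine of 17 tested (median -4.40). Sucrase-isomaltase, Sis, which splits sucrose and starch fragments, was at 1600, 4083 and 4531 CPM in distal small intestine and 0.315, 0.255 and 0.268 CPM in colon (-13.55 ± 0.63, adjusted p = 1.28e-05). The sodium-glucose transporter Slc5a1 was at 958, 2199 and 1867 CPM in distal small intestine and 155, 156 and 164 CPM in colon (-3.402 ± 0.32, adjusted p = 0.000225) and was detected in every colon library. Genes of fructose entry and breakdown were called the same way. The fructose transporter Slc2a5 was at 32.3, 98.9 and 90.5 CPM in distal small intestine and 4.35, 4.76 and 6.87 CPM in colon, and Khk, which phosphorylates fructose, was 8.02-fold higher in distal small intestine. Slc2a2, the exit route of glucose in enterocytes, was at 2.97, 8.96 and 52.2 CPM in distal small intestine and 0.135, 0 and 0 CPM in colon. Distal library 3 held most of it, and the other distal libraries were also above every colon library. Its fold change was -8.704 ± 1.6 (adjusted p = 0.00401). It was -6.87 without distal library 3, -12.6 without colon library 1 and -8.1 without colon library 3. The 1 gene called higher in colon was Slc2a1, a glucose transporter found in most cell types, at 23.2, 17.6 and 20.6 CPM in distal small intestine and 145, 134 and 148 CPM in colon (2.797 ± 0.13, adjusted p = 1.12e-05).

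All 13 brush-border peptidases and surface hydrolases tested were higher in distal small intestine, each at least 2-fold (median -7.03), while Tmprss15 was too low to test. Anpep, aminopeptidase N, was at 5487, 11720 and 9045 CPM in distal small intestine and 19.5, 15.04 and 19.8 CPM in colon (-8.91 ± 0.44, adjusted p = 1.57e-05). Enpep, aminopeptidase A, was at 2054, 4183 and 3243 CPM in distal small intestine and 6.87, 9.66 and 8.58 CPM in colon (-8.56 ± 0.39, adjusted p = 1.17e-05). The lowest distal value of each came from library 1, and even this was far above every colon library. Slc6a19, the neutral amino acid transporter of the brush border, was at 496, 1454 and 1242 CPM in distal small intestine and 3.06, 3.65 and 3.48 CPM in colon (-8.29 ± 0.5, adjusted p = 3.24e-05).

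Amino acid transporters were divided between the organs. Of 16 tested, 11 were higher in distal small intestine and 4 in colon. Slc7a9, the cystine transporter, and Slc43a2, an amino acid exit route, were 46-fold and 37.3-fold higher in distal small intestine. Slc6a14, a transporter of broad specificity, was at 8.53, 25.01 and 6.58 CPM in distal small intestine and 807, 841 and 781 CPM in colon (5.92 ± 0.56, adjusted p = 0.000228, and 6.74 without distal library 2). Slc36a1, a proton-coupled carrier of small amino acids, was at 35.4, 40.4 and 36.7 CPM in distal small intestine and 196, 167 and 226 CPM in colon (2.39 ± 0.14). The peptide transporter Slc15a1 was at 166, 571 and 514 CPM in distal small intestine and 248, 232 and 272 CPM in colon, and the groups overlapped. It was not called (-0.73 ± 0.41, adjusted p = 0.192), whereas without distal library 1 the difference was -1.11 (adjusted p = 0.000406).

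**Figure D2:**
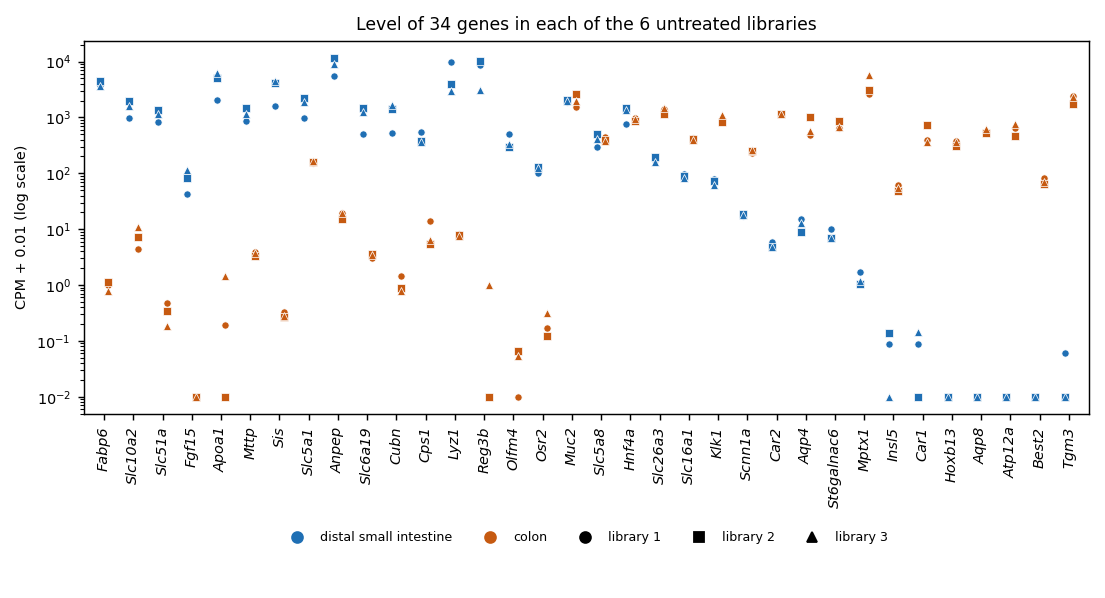
CPM plus 0.01 on a log axis for 34 genes (x axis) in each of the 6 libraries, with 1 symbol for each library number. Genes of bile acid, fat, sugar and peptide uptake lie high in distal small intestine (blue), Muc2, Slc5a8 and Hnf4a overlap, and Aqp8, Atp12a, Best2 and Hoxb13 sit on the bottom line, which is 0 counts, in every distal library.

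Vitamin uptake genes were higher in distal small intestine for 10 of 17 tested and higher in colon for 3 (median -2.32). Cubn and Amn make the cubilin receptor for vitamin B12 bound to intrinsic factor. Cubn was at 536, 1399 and 1673 CPM in distal small intestine and 1.44, 0.878 and 0.78 CPM in colon (-10.17 ± 0.61, adjusted p = 3.28e-05), and Amn at 78.7, 126 and 132 CPM in distal small intestine and 0.653, 1.08 and 0.535 CPM in colon (-7.24 ± 0.34, adjusted p = 1.26e-05). Both partners were close to 1 CPM in colon. Rbp2, which carries retinol inside enterocytes, was 8.51-fold higher in distal small intestine, with 58.5, 221 and 256 CPM there and library 1 lowest. The export pump Abcc1, counted with this group, was higher in colon at 17.9, 11.8 and 14.7 CPM in distal small intestine and 43.4, 38.5 and 38.8 CPM in colon (1.44 ± 0.16, adjusted p = 0.000509).

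Mineral transporters differed gene by gene, with 7 of 18 higher in distal small intestine, 6 higher in colon and a median of -0.37. The 7 became 4 when distal library 2 or any 1 colon library was left out. Of the phosphate carriers, Slc34a2, the sodium-phosphate cotransporter of the brush border, was higher in distal small intestine, at 303, 746 and 852 CPM in distal small intestine and 57.4, 27.6 and 39.7 CPM in colon (-3.93 ± 0.46). Slc20a1, of another phosphate carrier family, was higher in colon, at 32.7, 34.5 and 45.8 CPM in distal small intestine and 1150, 967 and 956 CPM in colon (4.76 ± 0.2, adjusted p = 9.83e-06). The iron exporter Slc40a1 was higher in colon (1.62 ± 0.26, adjusted p = 0.00234) and its partner oxidase Heph in distal small intestine (-1.56 ± 0.26, adjusted p = 0.00289). The calcium channel Trpv6 had no count in any distal library and 9.103, 10.3 and 9.63 CPM in colon, at least 318-fold higher. S100g, which buffers the calcium that enters, was at 4.23, 9.58 and 2.32 CPM in distal small intestine and 0.36, 0.481 and 0.468 CPM in colon and was higher in distal small intestine (-3.62 ± 0.55, -2.9 without distal library 2).

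Of 39 salt, water and acid-base transport genes tested, 20 were higher in colon and 9 in distal small intestine (median 0.81). That count was the largest of the 42 lists, which differ in size. As a share, more was higher in colon for smooth muscle markers (15 of 19), mucin glycosylation (15 of 25) and goblet cell products (12 of 21). Aqp8, a water channel, had no count in distal small intestine and 522, 517 and 620.1 CPM in colon, at least 18400-fold higher (adjusted p = 7.94e-06). Atp12a, the proton-potassium pump of the colon surface, had 635, 459 and 778 CPM in colon and again none in distal small intestine (at least 21000-fold, adjusted p = 2.68e-05). Best2, an anion channel of goblet cells, showed the same pattern with 83.3, 65.3 and 69.5 CPM in colon (at least 2420-fold). Aqp4, a further water channel, was at 15.5, 8.96 and 12.7 CPM in distal small intestine and 481, 1015 and 564 CPM in colon (5.79 ± 0.39, adjusted p = 5.3e-05), with colon library 2 highest.

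Carbonic anhydrases supply bicarbonate and protons, and 3 of them were higher in colon. Car1 was at 0.0769, 0 and 0.136 CPM in distal small intestine and 396, 739 and 370.3 CPM in colon, and Car2 at 5.87, 4.81 and 4.81 CPM in distal small intestine and 1130, 1165 and 1165 CPM in colon. The colon libraries were close to each other for Car2 (7.801 ± 0.18, adjusted p = 2.53e-06). Car1 rested on very few distal counts, and its fold change was 12.73, or 13.4 without distal library 3. Car4, at the cell surface, was at 177, 227 and 110.1 CPM in distal small intestine and 1041, 952 and 1058 CPM in colon (2.57 ± 0.27, adjusted p = 0.000353). The chloride-bicarbonate exchanger Slc26a3 was at 169.5, 196 and 161 CPM in distal small intestine and 1393, 1153 and 1494 CPM in colon (2.94 ± 0.17, adjusted p = 2.83e-05). Its relative Slc26a6 was the reverse, at 192, 294 and 267 CPM in distal small intestine and 1.44, 2.07 and 3.05 CPM in colon (-6.84 ± 0.33, adjusted p = 1.47e-05).

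The 3 subunits of the epithelial sodium channel were all higher in colon. Scnn1a was at 16.99, 18.5 and 17.8 CPM in distal small intestine and 234, 254 and 259.8 CPM in colon (3.81 ± 0.1, adjusted p = 4.31e-06). Scnn1b was at 0, 0.0974 and 0.136 CPM in distal small intestine and 20.2, 12.6 and 17.2 CPM in colon (7.79, 7.13 without distal library 1 and 8.48 without distal library 3). Scnn1g had no count in distal small intestine against 16.9, 7.64 and 17.8 CPM in colon (at least 482-fold). Hsd11b2, the enzyme that keeps cortisol-type steroids away from the receptor for aldosterone, was called the same way (3.45, adjusted p = 2.42e-05). Guca2b, which encodes uroguanylin, a hormone that acts on salt secretion, was at 134, 234 and 303 CPM in distal small intestine and 5.18, 6.09 and 4.82 CPM in colon (-5.38 ± 0.33, adjusted p = 3.68e-05). The chloride channel Cftr, at 149, 138 and 141 CPM in distal small intestine and 171, 174 and 147 CPM in colon, was not called (0.202 ± 0.1, adjusted p = 0.162).

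Short stretches of 4 promoters are shown because genes with the same letters before their start site lay on opposite sides of the comparison. Sequences are from RefSeq promoters of GRCm38.p6, 5′ to 3′ on the strand of the gene, matched by symbol. Capitals mark the letters GTTAATNAT or their reverse complement, a motif of the factor HNF1. Slc10a2 (chr8:5105418-5105537, minus strand) and Npc1l1 (chr11:6230246-6230365, minus strand), a cholesterol transporter, were higher in distal small intestine. Slc26a3 (chr12:31438080-31438199, plus strand) and Reg4 (chr3:98222007-98222126, plus strand), a secreted lectin, were higher in colon. These 4 were picked after their values and matches had been seen.
Slc10a2: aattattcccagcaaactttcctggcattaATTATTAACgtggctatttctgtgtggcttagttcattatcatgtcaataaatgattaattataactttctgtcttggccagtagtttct
Npc1l1: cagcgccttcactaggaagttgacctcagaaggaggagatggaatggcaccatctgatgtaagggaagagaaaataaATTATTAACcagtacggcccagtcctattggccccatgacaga
Slc26a3: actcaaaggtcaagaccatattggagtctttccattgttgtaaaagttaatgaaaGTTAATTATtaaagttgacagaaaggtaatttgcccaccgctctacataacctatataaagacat
Reg4: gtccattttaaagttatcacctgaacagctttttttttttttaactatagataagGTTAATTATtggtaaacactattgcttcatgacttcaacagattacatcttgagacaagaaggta
The first match ends 212 bases before the start site, the second 35, the third 76 and the fourth 86.

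Npc1l1 was at 295, 874 and 855 CPM in distal small intestine and 0.135, 0.113 and 0.134 CPM in colon. Letters of 4 factors were searched on both strands of windows of 250 bases before to 50 after the start. The share over all promoters counts promoters, and the other shares count genes with a match in any of their promoters. GTTAATNAT was in 0.801% of all 32851 promoters, in 0.672% of the 13240 tested genes that had a promoter, in 1.14% of the 1575 genes at least 2-fold higher in distal small intestine with a promoter, and in 1.36% of the 1322 such genes higher in colon. A motif of HNF4, CAAAGTCCA, was in 0.475% of all promoters, 0.597% of tested genes, 1.65% (26 genes) on the distal side and 0.681% (9 genes) on the colon side. TGATAA of GATA factors was in 9.05% of all promoters, 6.28% of tested genes, 8.89% on the distal and 8.7% on the colon side. TTTATGG of CDX factors was in 2.75%, 2.24%, 2.98% and 3.1%, in the same order. All 4 shares were higher on both sides than over tested genes, and none of these differences was tested. The HNF4 share on the colon side was close to that of tested genes, and both GATA shares were below that of all promoters. The HNF4 letters are shown in Slc3a1 (chr17:85028227-85028346, plus strand), the partner of Slc7a9 in cystine transport, and Treh (chr9:44673107-44673226, plus strand), which splits trehalose; both were chosen in the same way.
Slc3a1: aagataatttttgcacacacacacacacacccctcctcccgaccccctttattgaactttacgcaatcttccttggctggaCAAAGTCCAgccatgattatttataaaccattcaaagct
Treh: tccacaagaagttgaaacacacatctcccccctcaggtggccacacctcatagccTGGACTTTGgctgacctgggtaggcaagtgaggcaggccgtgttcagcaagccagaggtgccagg
Slc3a1 was at 245, 655 and 552 CPM in distal small intestine and 2.997, 11.04 and 5.82 CPM in colon, and Treh at 46.3, 96.5 and 103 CPM in distal small intestine and 0.135, 0.17 and 0.713 CPM in colon. The match lies 31 to 39 bases before the start site of Slc3a1 and 63 to 71 before that of Treh. A match is a description of letters and not a measured binding site.

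Among 14 genes of short-chain fatty acid uptake and ketone synthesis, 4 were higher in colon, 2 in distal small intestine and 8 were not called (median 0.12). The share called was close to the 40.7% over all genes tested. Slc16a1, which carries butyrate and lactate, was at 97.1, 90.9 and 83.1 CPM in distal small intestine and 433, 416 and 401 CPM in colon (2.21 ± 0.11, adjusted p = 1.74e-05). Acsm3, which activates medium- and short-chain acids, was at 17.1, 13.2 and 15.8 CPM in distal small intestine and 211, 219 and 193 CPM in colon (3.75 ± 0.13, adjusted p = 5.86e-06), and Acss2, which activates acetate, was 3.91-fold higher in colon. Slc5a8, the sodium-coupled carrier of these acids, was at 289.7, 502 and 416 CPM in distal small intestine and 442, 399 and 386 CPM in colon and overlapped fully (0.02 ± 0.2, adjusted p = 0.942). Its sign turned without distal library 1 (-0.161) and without colon library 1 (-0.0334).

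Of 13 genes of the urea cycle and citrulline synthesis, 9 were higher in distal small intestine and 1 in colon (median -2.40). Cps1, which makes carbamoyl phosphate, was at 539.5, 386 and 365 CPM in distal small intestine and 13.8, 5.52 and 6.49 CPM in colon (-5.64 ± 0.41, adjusted p = 7.9e-05). Otc, the next step, was at 119.9, 147 and 115 CPM in distal small intestine and 2.68, 6.46 and 2.92 CPM in colon, and Nags, which makes the activator of Cps1, at 32.98, 41.9 and 33.3 CPM in distal small intestine and 0.383, 0.396 and 0.468 CPM in colon. Otc was 32-fold and Nags 85.8-fold higher in distal small intestine, with no overlap. Arg2, the mitochondrial arginase, was at 65.99, 71.9 and 73.9 CPM in distal small intestine and 2.21, 1.56 and 2.05 CPM in colon (-5.18 ± 0.16, adjusted p = 4.31e-06). Ass1, the enzyme that uses citrulline, was the exception, at 12.4, 9.19 and 10.3 CPM in distal small intestine and 28.9, 34.1 and 31.3 CPM in colon (1.56 ± 0.14, adjusted p = 0.000216).

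Cholesterol synthesis genes were higher in distal small intestine for 20 of 22 tested (median -1.52), and 18 of them at least 2-fold. Hsd17b7 was at 57.4, 71.9 and 57.5 CPM in distal small intestine and 15.5, 16.5 and 13.8 CPM in colon (-2.03 ± 0.13, adjusted p = 4.4e-05). Retinoid genes showed 11 of 18 higher in distal small intestine and 3 in colon (median -2), the 3 becoming 1 without colon library 2 or 3. Isx, a repressor of beta-carotene uptake, was at 125, 158 and 144 CPM in distal small intestine and 3.36, 10.99 and 3.83 CPM in colon (-4.57 ± 0.47, -5.3 without colon library 2), and Rdh7, a retinol dehydrogenase, at 18.8, 19.03 and 40.7 CPM in distal small intestine and 0.158, 0 and 0.178 CPM in colon. Colon library 2 held the most Isx of the colon libraries.

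Drug-metabolising genes split, with 21 of 41 higher in distal small intestine and 12 in colon. Cyp3a25 was at 79.5, 90.6 and 159.8 CPM in distal small intestine and 0, 0 and 0.178 CPM in colon (-10.67, -10.1 without colon library 1 and -14.9 without colon library 3). Ugt2b5, a glucuronidating enzyme, was at 18.7, 24.6 and 22.98 CPM in distal small intestine and 0.135, 0.34 and 0.112 CPM in colon (-6.85 ± 0.37, -7.45 without colon library 2). The carboxylesterase Ces2e was at 662, 996 and 997 CPM in distal small intestine and 134, 141 and 122 CPM in colon (-2.74 ± 0.2, adjusted p = 7.41e-05). In the other direction, the sulfotransferase Sult1a1 was at 13.99, 14.1 and 8.97 CPM in distal small intestine and 207, 207 and 209 CPM in colon (4.07 ± 0.19, adjusted p = 1.29e-05) and Gstm1, a glutathione transferase, at 42.3, 34.5 and 37.4 CPM in distal small intestine and 183, 212 and 178 CPM in colon. Cyp2d34 and Cyp2d13 had at most a few counts in distal small intestine. Cyp2d13 had no count in distal small intestine and 33.5, 40.5 and 42.04 CPM in colon, and Cyp2d34 had 0, 0.13 and 0 CPM in distal small intestine and 225, 206 and 279 CPM in colon (12.400, 11.7 without distal library 1 and 16.2 without distal library 2). Cyp2c55 was at 13.2, 26.1 and 79.7 CPM in distal small intestine and 329, 376 and 362 CPM in colon (3.17 ± 0.61, 4.18 without distal library 3, which held most of the distal RNA). Members of these enzyme families resemble each other, so reads may be divided between them.

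In the respiratory chain group 29 of 35 genes were not called, 5 were higher in distal small intestine and 1 in colon (median -0.14). The 5 became 2 without distal library 2 or colon library 1 or 3, and 3 without colon library 2. Relative to epithelial markers the median turned to 0.492, with 28 genes higher in colon and 0 in distal small intestine. Of the subunits called, Uqcrq was at 160.2, 168 and 132 CPM in distal small intestine and 76.4, 84.7 and 70.9 CPM in colon (-0.99 ± 0.13, adjusted p = 0.000872) and Ndufa4 at 151, 128 and 103 CPM in distal small intestine and 55.6, 71.2 and 52.01 CPM in colon (-1.09 ± 0.18). For fatty acid oxidation 12 of 20 genes were higher in distal small intestine, by under 2-fold except Ppara, the lipid-sensing receptor, at 70.8, 83.4 and 98.6 CPM in distal small intestine and 22.1, 27.7 and 28.7 CPM in colon (-1.69 ± 0.16, adjusted p = 0.000226). The coactivator Ppargc1a was higher in colon, at 20.1, 38.6 and 28.99 CPM in distal small intestine and 108, 74.4 and 86.9 CPM in colon (1.62 ± 0.25, adjusted p = 0.00207). With epithelial scaling the median of that group went from -0.40 to 0.233, and the 12 became 1.

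The Hox genes divided by cluster. Of 39 genes, 32 were tested, 15 were higher in colon and 11 in distal small intestine, each at least 2-fold, and 6 were not called. Hoxb13, the last gene of its cluster, had no count in distal small intestine and 385, 304 and 357 CPM in colon (at least 11600-fold, adjusted p = 8.59e-06). Hoxa10 and Hoxa13 were also without a count in distal small intestine, against 40.3, 42.4 and 38.8 CPM and 26.4, 28.9 and 27.9 CPM in colon. The same held for Hoxa11, at 8.79, 10.6 and 7.11 CPM, and for Hoxd10, Hoxd11, Hoxd12 and Hoxd13, the last of these at 11.7, 9.15 and 16.7 CPM. The 8 tested genes without a distal count were the members numbered 10 to 13 of the HoxA, HoxB and HoxD clusters. Hoxd1, too low to be tested, had a mean of 0 CPM in both organs. Of the HoxC cluster, members 10 to 13 had no count in any of the 6 libraries.

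Members with lower numbers differed by cluster. In the HoxA cluster Hoxa2 to Hoxa9 were higher in colon too, for example Hoxa3 at 3.74, 2.92 and 3.75 CPM in distal small intestine and 38.4, 39.1 and 37.6 CPM in colon (3.46 ± 0.14, adjusted p = 8.39e-06). In the HoxB cluster Hoxb3 to Hoxb8 were higher in distal small intestine. Hoxb7 was at 17.6, 15.98 and 13.4 CPM in distal small intestine and 0.496, 0.878 and 0.513 CPM in colon (-4.65 ± 0.28, adjusted p = 3.13e-05), and Hoxb8 at 14.8, 15.8 and 8.05 CPM in distal small intestine and 0.36, 0.396 and 0.513 CPM in colon (-4.91 ± 0.34, adjusted p = 6.33e-05). Hoxc4 to Hoxc9 were higher in distal small intestine as well: Hoxc6 was at 15.02, 16.6 and 12.1 CPM in distal small intestine and 0, 0 and 0.0892 CPM in colon (-8.69, -12 without colon library 3), and Hoxc8 had 12.2, 11.7 and 8.12 CPM there and no count in colon. Hoxb9, between these blocks, was at 43.01, 37.5 and 24.2 CPM in distal small intestine and 46.3, 46.1 and 42.8 CPM in colon and was not called (adjusted p = 0.182). The noncoding transcripts Hottip, with 34.7, 41.8 and 36.5 CPM, and Hoxa11os, with 153, 189 and 181 CPM in colon and no count in distal small intestine, overlap or adjoin HoxA genes on the opposite strand. The sources used here do not say whether counting used strand, so their reads may not be separate from those genes.

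**Figure D3:**
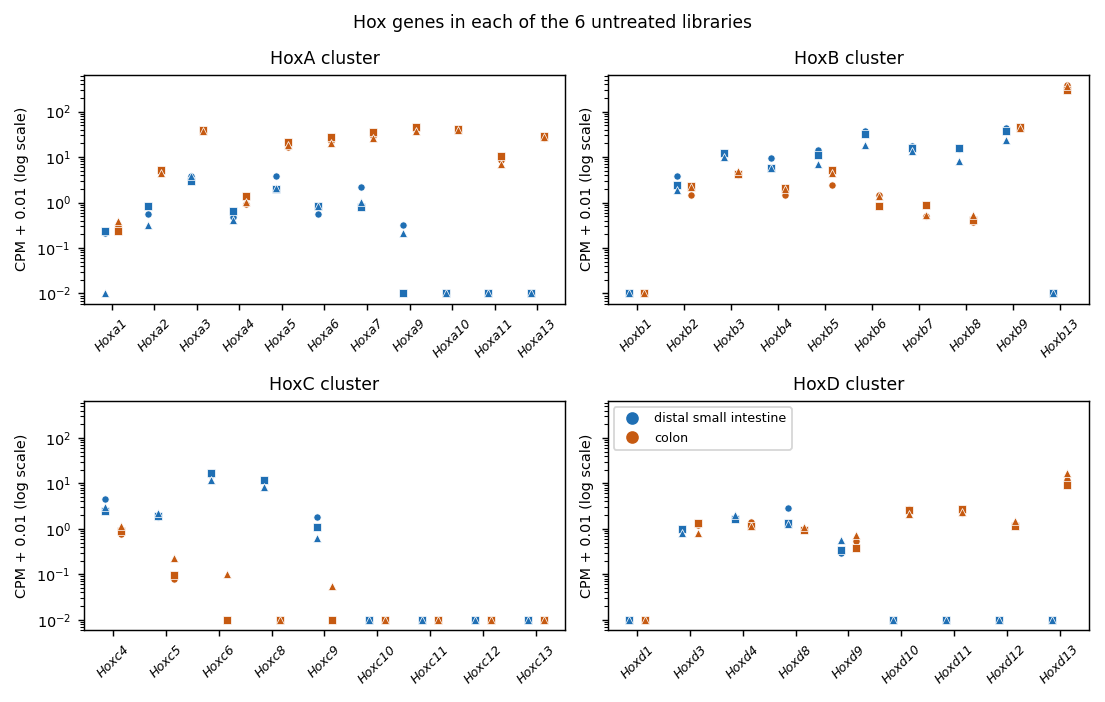
CPM plus 0.01 on a log axis for the Hox genes of the 4 clusters in each of the 6 libraries, in the order of their numbers; symbols stand for library 1 (circle), 2 (square) and 3 (triangle), and the bottom line is 0 counts. Genes 10 to 13 of HoxA, HoxB and HoxD lie above 1 CPM in the colon libraries alone, and Hoxb6 to Hoxb8 and Hoxc5 to Hoxc9 are higher in distal small intestine.

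Other regulators of regional identity were higher in distal small intestine for 15 of 36 tested and in colon for 9, while 12 were not called. Gata5, a factor of small intestinal epithelium, was at 91.3, 155 and 156 CPM in distal small intestine and 0.496, 0.538 and 0.646 CPM in colon (-7.89 ± 0.3, adjusted p = 7.54e-06). Osr2 was at 100.4, 130.2 and 125 CPM in distal small intestine and 0.158, 0.113 and 0.312 CPM in colon (-9.19 ± 0.28, adjusted p = 4.31e-06), and Maf, which promotes enterocyte maturation, at 307, 582 and 494 CPM in distal small intestine and 11.2, 9.401 and 12.3 CPM in colon. Hnf4g was 9.14-fold higher in distal small intestine. Its relative Hnf4a overlapped between the organs, with 768, 1499 and 1331 CPM in distal small intestine and 958, 873 and 955 CPM in colon, and was not called (-0.37 ± 0.25, adjusted p = 0.281). Without distal library 1 it was -0.601 (adjusted p = 0.00617).

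On the colon side, Pparg, a lipid-sensing nuclear receptor, was at 6.82, 12.6 and 9.65 CPM in distal small intestine and 36.6, 36.8 and 30.9 CPM in colon (1.84 ± 0.22, adjusted p = 0.000714). The caudal homeobox factors Cdx1 and Cdx2 mark intestinal epithelium in general and were detected in all 6 libraries. Their calls had opposite directions. Cdx1 was at 154, 142 and 130.4 CPM in distal small intestine and 183, 194 and 187 CPM in colon (0.403 ± 0.1, adjusted p = 0.0164), a call lost without distal library 3 (0.0514) and without colon library 2 (0.0689) or 3 (0.0642). Cdx2 was at 201, 266 and 246 CPM in distal small intestine and 73.5, 110 and 67.9 CPM in colon (-1.504 ± 0.21, adjusted p = 0.00128). Gata4, which marks the upper small intestine, was at 1.08, 3.57 and 4.77 CPM in distal small intestine and 0.203, 0 and 0.802 CPM in colon, and its call (adjusted p = 0.0412) was lost without distal library 2 (0.0902) or 3 (0.0939) and without colon library 1 (0.135) or 2 (0.0585). The fold change of -3.17 became -4.8 without colon library 3.

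Of 23 gut hormone genes tested, 8 were higher in distal small intestine and 8 in colon. Nts, neurotensin, was at 39.1, 73.9 and 62.6 CPM in distal small intestine and 0.135, 0.142 and 0 CPM in colon (-9.31, adjusted p = 2.96e-05, and -8.69 without colon library 3). Sct, secretin, was at 15.7, 26.4 and 24.6 CPM in distal small intestine and 1.15, 1.27 and 0.869 CPM in colon (-4.34 ± 0.27), and Gip had 5.02, 4.29 and 6.68 CPM in distal small intestine and no count in colon (at least 219-fold). Insl5, a hormone of the hindgut L cell, was at 0.0769, 0.13 and 0 CPM in distal small intestine and 62.03, 48.05 and 55.3 CPM in colon (9.54, 10.2 without distal library 2). Pyy, peptide YY, was at 19.5, 21.8 and 22.7 CPM in distal small intestine and 63.1, 49.8 and 53.9 CPM in colon (1.38 ± 0.12, adjusted p = 0.000175), and Tph1, which starts serotonin synthesis, at 3.23, 4.77 and 3.21 CPM in distal small intestine and 23.6, 23.8 and 18.4 CPM in colon (2.55 ± 0.21, adjusted p = 0.000137). Gcg, which encodes GLP-1 and is made by the same L cells, was at 53.1, 27.1 and 31.5 CPM in distal small intestine and 57.95, 54.99 and 46.1 CPM in colon and overlapped (0.51 ± 0.25, adjusted p = 0.142). Its distal value was highest in library 1, without which the difference was 0.863 (adjusted p = 0.00209). The granule protein genes Chga and Chgb, present in most hormone cells, were 2.61-fold and 3.15-fold higher in colon.

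Of 19 Paneth cell products tested, 15 were higher in distal small intestine, 1 in colon and 3 were not called. The median was -14.87, or -12.59 with genes that had no colon count set to their lower bound. Lyz1, Paneth cell lysozyme, was at 9729, 3941 and 2958 CPM in distal small intestine and 8.13, 7.79 and 7.67 CPM in colon (-9.46 ± 0.62, -8.77 without distal library 1). The enzyme Mmp7, which activates alpha-defensins, had 252, 91.8 and 71.8 CPM in distal small intestine and no count in colon (at least 6180-fold, adjusted p = 0.000584). Its fitted fold change was -15.34, and -14.6 without distal library 1. Among the alpha-defensins Defa24 was at 5974, 2240 and 1810 CPM in distal small intestine and at 0, 0 and 0.268 CPM in colon (-15.05, -14.3 without distal library 1, -14.4 without colon library 1 and -19.9 without colon library 3). Defa21 had 4388, 1767 and 1360 CPM and no colon count (at least 111000-fold). These genes are near-identical copies, so the division of reads between them is uncertain. Each was highest in distal library 1. The summed level of the list was 39400, 15600 and 12100 CPM, against 142, 183 and 531 CPM in colon.

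Ang4, an antibacterial ribonuclease, did not share that pattern. It was at 633, 201 and 138 CPM in distal small intestine and 57.7, 78.6 and 366 CPM in colon, was not called (-0.95 ± 0.82, adjusted p = 0.391), and moved to -0.00576 without distal library 1 and to -2.25 without colon library 3. Tlr5, the flagellin receptor, was the 1 gene of the list called higher in colon, at 1.97, 1.79 and 2.01 CPM in distal small intestine and 6.38, 3.99 and 4.17 CPM in colon.

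Of 21 Reg lectins and other epithelial antimicrobials tested, 9 were higher in distal small intestine and 5 in colon. Reg3b, a lectin that binds bacteria, was at 8836, 10220 and 3096 CPM in distal small intestine and at 0, 0 and 1.003 CPM in colon. Reg3g, its relative, was at 3843, 4166 and 1052 CPM in distal small intestine and 0.18, 0.368 and 0 CPM in colon (-14.08 ± 1, adjusted p = 8.01e-05, -15 without colon library 2 and -13.4 without colon library 3). Both were lowest in distal library 3. For Reg3b the fold change was -14.34 (adjusted p = 0.000268) and -13.7 without colon library 1. Without colon library 3, the only colon library with a count, the fit gave -21, a size that rests on 0 colon counts. Nos2, the inducible nitric oxide synthase, was at 266, 453 and 310.2 CPM in distal small intestine and 5.23, 3.31 and 6.13 CPM in colon (-6.13 ± 0.33, adjusted p = 2.18e-05). In colon, Mptx1, a mucosal pentraxin, was at 2673, 3042 and 5733 CPM against 1.72, 1.04 and 1.16 CPM (11.500 ± 0.52, adjusted p = 1.12e-05). Without colon library 3, 3 genes of the group in place of 5 were called higher in colon.

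Lypd8, which keeps flagellated bacteria off the colon surface, was at 2293, 2557 and 1496 CPM in distal small intestine and 5809, 5005 and 5656 CPM in colon (1.38 ± 0.26, adjusted p = 0.00484), and Reg4 at 45.1, 21.4 and 25.4 CPM in distal small intestine and 248, 189 and 392 CPM in colon (3.17 ± 0.38). Saa1, an acute-phase protein, was at 146, 272 and 21.8 CPM in distal small intestine and 891, 771 and 1042 CPM in colon (2.62 ± 0.76, adjusted p = 0.0287). The call was lost without distal library 1 (0.0624) or any 1 colon library (0.0711, 0.0578 and 0.0751), and the fold change was 3.42 without distal library 2. Retnlb, a goblet cell peptide, was at 2.501, 15.8 and 85.8 CPM in colon, so library 3 held most of it. Its call (adjusted p = 0.0208) was lost with the replicate number as a block (0.0913), without distal library 2 (0.0695) or 3 (0.0505), and without colon library 3 (0.0722), where the fold change went from 5.73 to 3.84. It was 7.84 without distal library 1. Zg16, which binds bacteria in mucus, was not called (-0.35 ± 0.2, adjusted p = 0.198), but was -0.469 without distal library 1 (adjusted p = 0.025).

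Receptors of the innate immune system also divided, 7 of 24 being higher in colon and 10 in distal small intestine. Tlr4, the endotoxin receptor of the cell surface, was at 8.66, 6.14 and 6.65 CPM in distal small intestine and 37.8, 37.01 and 47.8 CPM in colon (2.51 ± 0.18, adjusted p = 6.82e-05). Tlr1 was at 15.2, 10.6 and 18.2 CPM in distal small intestine and 88.3, 76.9 and 81.8 CPM in colon (2.49 ± 0.2) and Tlr2, its partner for lipopeptides, at 5.51, 3.15 and 3.34 CPM in distal small intestine and 12.3, 13 and 10.97 CPM in colon (1.59 ± 0.24, adjusted p = 0.00206). Of the sensors inside the cell, Naip5 was higher in distal small intestine, at 254, 482 and 423 CPM in distal small intestine and 88.3, 90.4 and 91.4 CPM in colon (-2.101 ± 0.23), as was Nlrc4, which it activates, at 85.7, 139.6 and 133 CPM in distal small intestine and 41.4, 35.4 and 36.6 CPM in colon (-1.66 ± 0.19, adjusted p = 0.000576). Nod1, a further sensor inside the cell, was higher in colon (0.77, adjusted p = 0.0298).

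MHC class II presentation genes were higher in distal small intestine for 7 of 11 tested and higher in colon for 1 (median -2.59). The 1 became 3 without distal library 3, and 0 without any 1 of the colon libraries or with the replicate block. H2-Eb1, a class II chain, was at 427, 454 and 437 CPM in distal small intestine and 78.6, 72.01 and 68.5 CPM in colon (-2.59 ± 0.11, adjusted p = 1.04e-05). H2-DMb1, which helps load peptides, was at 116, 137 and 109.8 CPM in distal small intestine and 9.31, 9.85 and 11.6 CPM in colon (-3.56 ± 0.14, adjusted p = 7.94e-06), and Ciita, the master switch of these genes, was called too (-2.14, adjusted p = 0.000228). Macrophage and dendritic cell markers, which moved in the same direction, had 11 of 18 genes higher in distal small intestine (5 without colon library 2, 6 without colon library 3) and a summed level of 449 to 695 CPM, against 225 to 310 CPM in colon. Their part in the class II result was not tested.

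Goblet cell genes were higher in colon for 12 of 21 tested and higher in distal small intestine for 3 (median 0.68). The 3 became 1 without distal library 2 or colon library 1 or 3. Muc2, the gel-forming mucin of intestinal mucus, was not called and overlapped, at 1898, 2084 and 1987 CPM in distal small intestine and 1531, 2600 and 1965 CPM in colon (0.03 ± 0.23, adjusted p = 0.928), its small difference turning to -0.184 without colon library 2. Klk1, a kallikrein, was at 78.5, 72.3 and 61.7 CPM in distal small intestine and 901, 835 and 1091 CPM in colon (3.73 ± 0.17, adjusted p = 1.28e-05), and Creb3l1, a secretory cell factor, at 29.99, 33.2 and 26.9 CPM in distal small intestine and 155, 143 and 122 CPM in colon (2.22 ± 0.13). Muc1, a membrane mucin, was at 0.384, 0.26 and 0.341 CPM in distal small intestine and 12.6, 9.203 and 14.9 CPM in colon (5.198 ± 0.28, adjusted p = 2.42e-05). Tff3, a trefoil peptide secreted with mucin, was instead higher in distal small intestine, at 684, 808 and 711 CPM in distal small intestine and 362, 294 and 366 CPM in colon (-1.11 ± 0.14, adjusted p = 0.000998). Clca1, which processes Muc2, was at 2148, 3351 and 2904 CPM in distal small intestine and 6558, 4391 and 7203 CPM in colon (1.11 ± 0.28, adjusted p = 0.0181), a call lost without colon library 1 (0.0724) or 3 (0.0764).

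Enzymes that add sugars to mucins were higher in colon for 15 of 25 tested and in distal small intestine for 5. St6galnac6, a sialyltransferase, was at 10.2, 7.05 and 6.99 CPM in distal small intestine and 657, 856 and 678 CPM in colon (6.497 ± 0.24, adjusted p = 6.9e-06). Fut2, which adds the fucose of blood group H, was at 9.25, 14.4 and 3.68 CPM in distal small intestine and 144, 179.8 and 148 CPM in colon (4.11 ± 0.45, adjusted p = 0.000459), and Fut9, of the same enzyme family, had 37.8, 21.5 and 29.7 CPM in colon and no distal count. Higher in distal small intestine were St3gal4, a sialyltransferase, at 1449, 2211 and 1734 CPM in distal small intestine and 220.3, 374 and 350.2 CPM in colon (-2.51 ± 0.27), and B4galnt2, which makes the Sda antigen, at 722, 957 and 863 CPM in distal small intestine and 249, 290 and 282 CPM in colon (-1.63 ± 0.15, adjusted p = 0.000229). Tgm3, a crosslinking transglutaminase outside these lists, was among the 15 largest differences, at 0.0513, 0 and 0 CPM in distal small intestine and 2410, 1733 and 2299 CPM in colon (16.48, adjusted p = 4.31e-06, and 19.3 without distal library 1).

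Claudins, which set how tight the epithelium is, were 4 higher on each side of 15 tested. Cldn2 and Cldn15 form pores for cations. Cldn2 was at 340.5, 282 and 262 CPM in distal small intestine and 146, 86.2 and 110.1 CPM in colon (-1.37 ± 0.21) and Cldn15 at 253, 274 and 251 CPM in distal small intestine and 51.96, 99.2 and 61.3 CPM in colon (-1.87 ± 0.24, adjusted p = 0.000853), both higher in distal small intestine. Cldn8, a sealing claudin that acts with the epithelial sodium channel, was at 5.203, 6.495 and 4.71 CPM in distal small intestine and 92.9, 47.99 and 58.9 CPM in colon (3.61 ± 0.28, adjusted p = 9.86e-05), and Cldn14 at 0.102, 0.26 and 0.0682 CPM in distal small intestine and 5.38, 3.82 and 4.79 CPM in colon (5.005, 5.69 without distal library 2).

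Of 18 stem cell genes, 8 were higher on each side. The colon count was 5 without distal library 2, and the distal count was 5 without colon library 1 or 2. Olfm4, a crypt base marker of the small intestine, was at 497, 292 and 336 CPM in distal small intestine and at 0, 0.0566 and 0.0446 CPM in colon (-13.37, adjusted p = 5.81e-06, -12.8 without colon library 1). Prom1 was at 83.4, 71.5 and 52.5 CPM in distal small intestine and 199, 232 and 204 CPM in colon (1.61 ± 0.18, adjusted p = 0.000456). Lgr5, a marker of crypt stem cells in both organs, was at 19.2, 11.3 and 13.7 CPM in distal small intestine and 7.59, 4.87 and 8.72 CPM in colon (-1.06 ± 0.28, adjusted p = 0.0199), and this call was lost without colon library 1 (0.0571) or 2 (0.0541). Cell cycle genes were higher in distal small intestine for 22 of 23 tested (median -2.21). Rrm2, which makes the building blocks of DNA, was at 29.01, 19.8 and 19.6 CPM in distal small intestine and 4.06, 5.78 and 3.95 CPM in colon (-2.31 ± 0.23, adjusted p = 0.000318) and Pcna, the clamp of DNA polymerase, at 89.5, 80.8 and 78.02 CPM in distal small intestine and 41.9, 43.8 and 41.5 CPM in colon (-0.97 ± 0.09).

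Of 12 pan-epithelial markers, 6 were higher in distal small intestine and 2 in colon, with a summed level of 17800 to 26300 CPM against 13200 to 14600 CPM. Vil1, the villus actin bundler, was at 1950, 4131 and 3405 CPM in distal small intestine and 567, 570.1 and 544 CPM in colon (-2.497 ± 0.29, adjusted p = 0.000615). Epcam, carried by all epithelial cells, was at 1651, 2648 and 2388 CPM in distal small intestine and 1359, 1397 and 1316 CPM in colon (-0.72 ± 0.21, adjusted p = 0.0316). With the replicate number as a block its adjusted p was 0.0634, and it was not called without any 1 of distal libraries 2 and 3 and colon libraries 1, 2 and 3 (0.069 to 0.118). Smooth muscle markers were higher in colon for 15 of 19 tested (median 0.77), 4 of them at least 2-fold. The 1 called higher in distal small intestine was Mylk (-0.53, adjusted p = 0.0184). Their summed level was 4520 to 5890 CPM in distal small intestine and 9230 to 9610 CPM in colon. Acta2 was 1.88-fold and Myh11 1.7-fold higher in colon, and larger differences were seen for Tagln and Cnn1. Tagln was at 291, 305 and 204 CPM in distal small intestine and 933, 914 and 948 CPM in colon (1.81 ± 0.18, adjusted p = 0.000292), and Cnn1, a muscle calponin, at 138, 160.5 and 109 CPM in distal small intestine and 550.3, 567 and 499 CPM in colon. The part of the higher muscle level in the lower summed level of the 12 pan-epithelial markers in colon was not tested. Those markers differed among themselves. Vil1, Krt20 (-2.03) and Cdh17 (-1.59) were the 3 at least 2-fold higher in distal small intestine. Elf3, 1 of the 2 called higher in colon, was 1.35-fold higher there. The scaling to epithelial markers above gives levels relative to this set, and not to a measured amount of epithelium.

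Fibroblast markers were higher in colon for 8 of 20 and higher in distal small intestine for 1. The count higher in colon was 16 without distal library 1, 5 without distal library 2 or colon library 1, and 14 with the replicate number as a block. Pi16, a marker of adventitial fibroblasts, was at 1.51, 0.909 and 0.716 CPM in distal small intestine and 8.49, 7.25 and 7.82 CPM in colon (2.89 ± 0.3, adjusted p = 0.000346). Enteric neuron and glia markers, a list that also holds the pacemaker cell genes Ano1 and Kit, were higher in colon for 8 of 19. The other 11 were not called. The 8 became 4 without colon library 2 or 3 or distal library 3, and 5 without distal library 2 or with the block. Ano1, found in the pacemaker cells of the gut wall and in epithelium, was at 16.4, 14.9 and 14.4 CPM in distal small intestine and 328, 280.4 and 284 CPM in colon (4.29 ± 0.12, adjusted p = 4.31e-06), and Kit, another pacemaker cell marker, at 37.8, 32.3 and 26.97 CPM in distal small intestine and 66.8, 74.1 and 63.3 CPM in colon (1.07 ± 0.14).

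T and NK cell markers were higher in distal small intestine for 18 of 19 tested (median -3.10), and their summed level was 247, 452 and 300 CPM against 30.6, 28.7 and 25.7 CPM. Cd8a was at 18.9, 42.5 and 24.7 CPM in distal small intestine and 1.69, 1.27 and 1.43 CPM in colon (-4.29 ± 0.34, adjusted p = 0.000111) and Cd3g, a chain of the T cell receptor complex, at 11.2, 17.5 and 17.7 CPM in distal small intestine and 1.397, 1.13 and 1.09 CPM in colon (-3.67 ± 0.25, adjusted p = 5.42e-05). Igha, the IgA heavy chain, was at 6970, 4379 and 2437 CPM in distal small intestine and 909.5, 887 and 818 CPM in colon (-2.398 ± 0.38, adjusted p = 0.00234), and Jchain, which joins IgA units, at 2091, 1260 and 803 CPM in distal small intestine and 272, 316 and 299.7 CPM in colon (-2.23 ± 0.34). Distal library 1 was highest for both.

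B cell markers rested on 1 library. Cr2, a complement receptor of follicular dendritic and B cells, was at 0.615, 0.13 and 48.1 CPM in distal small intestine and 10.3, 12.01 and 13.9 CPM in colon. Distal library 3 was far above every colon library and the other distal libraries far below, and the gene was not called (-0.43 ± 1.5, adjusted p = 0.845). Without distal library 3 the difference was 4.95 (adjusted p = 0.000869), higher in colon. The B and plasma cell list then had 9 genes higher in colon and 7 in distal small intestine, in place of 0 and 7. Of 10 follicle markers, edgeR called 0 with all libraries (1 with an unadjusted p below 0.05), while DESeq2 called 2, both higher in distal small intestine. edgeR called 6 higher in colon without distal library 3 and 3 higher in distal small intestine without distal library 2.

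**Figure D4:**
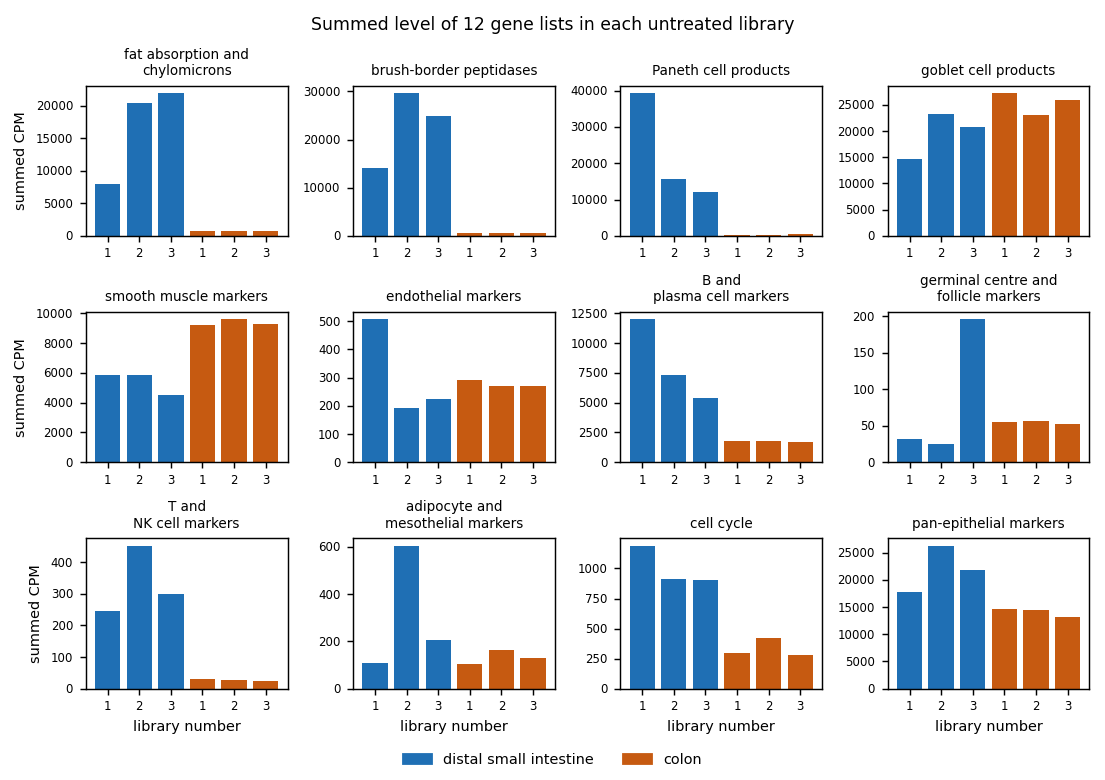
Summed CPM of 12 gene lists in each untreated library (bars, 1 for each library, numbered on the x axis, with distal small intestine in blue and colon in orange; each panel has its own scale from 0). Distal library 1 has the lowest fat absorption and peptidase sums and the highest Paneth and endothelial sums, distal library 2 the highest adipocyte sum and distal library 3 the highest follicle sum, while the 3 colon libraries are close to each other in most lists.

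The other control libraries place these levels along the gut. Values in this paragraph and the next come from 15 control libraries scaled together, as mean ± SD of 3 libraries, over tables counted separately and with no test. Fabp6 and Fgf15 had their highest mean in distal small intestine. Fabp6 was at 0.129 ± 0.223 CPM in the proximal stretch, 120 ± 129 CPM in the middle, 3590 ± 346 CPM in the distal stretch and 0.871 ± 0.16 CPM in colon. Fgf15 was at 1.48 ± 0.941 CPM in the middle and 72.4 ± 32.1 CPM in the distal stretch, with 0 in the proximal stretch and in colon. Apoa4 and Fabp1 had theirs in the proximal stretch. From proximal small intestine to colon, Apoa4 was at 15500 ± 2050, 5420 ± 2220, 521 ± 352 and 0.553 ± 0.888 CPM, and Fabp1 at 3190 ± 75.5, 820 ± 374, 23 ± 12.3 and 0.253 ± 0.279 CPM. Gip, a hormone of the upper gut, was at 60.6 ± 18.8, 24.7 ± 7.08 and 4.81 ± 1.11 CPM, with 0 in colon. Cubn was close to level along the small intestine, at 1080 ± 291, 1100 ± 311 and 1090 ± 537 CPM, and at 0.946 ± 0.325 CPM in colon. Pyy was higher at each step, with 1.38 ± 0.598, 10.8 ± 1.28, 19.3 ± 1.51 and 50.9 ± 6.21 CPM.

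The control colons of the 6 h experiment, also labelled colon of male C57BL/6J mice, had other levels of many of the genes above than those of the 4-week experiment. Hoxb13 was at 0.715 ± 0.981 CPM there, against 319 ± 37.5 CPM at 4 weeks, and Hoxb8 at 27.8 ± 1.63 against 0.388 ± 0.0741 CPM. Car1 was at 9110 ± 1010 against 459 ± 188 CPM and Cyp2c55 at 2780 ± 307 against 326 ± 22.2 CPM. In the other direction, Aqp8 was at 47.1 ± 37.6 against 507 ± 54.7 CPM, Atp12a at 2.47 ± 1.19 against 572 ± 147 CPM, Tgm3 at 9.66 ± 6.42 against 1970 ± 334 CPM and Mptx1 at 1.08 ± 0.78 against 3500 ± 1540 CPM. Slc6a14, at 738 ± 56.1 and 741 ± 25.7 CPM, and Gcg, at 66.5 ± 6.67 and 48.5 ± 5.5 CPM, were of like size in both. Muc2 was at 10700 ± 451 CPM in the 6 h colons and 1860 ± 492 CPM at 4 weeks. Some genes low in the 4-week colons were near their distal level in the 6 h colons. Osr2 was at 107 ± 6.75 CPM there, 0.178 ± 0.0962 CPM at 4 weeks and 107 ± 14.5 CPM in distal small intestine. In this order, Nts was at 42.2, 0.0843 and 52.9 CPM and Sct at 17.9, 1 and 20.1 CPM (means). Slc10a2 lay between, at 389, 6.99 and 1390 CPM. Fabp6, at 5.04 ± 1.36 CPM, and Mttp, at 2.44 ± 0.9 CPM, stayed low in the 6 h colons. Set against distal small intestine in place of the 4-week colons, the 6 h colons gave 7 cell cycle genes higher in distal small intestine in place of 22, and 10 cholesterol synthesis genes in place of 20. Of the Hox genes 25 were then higher in colon and 5 in distal small intestine, and of the respiratory chain 11 and 1. With the 6 h colons the log2 fold change was 4.22 for S100g, 1.23 for Hoxb8, 0.407 for Hoxb7, 1.28 for Ugt2b5, 0.383 for Isx and 0.741 for B4galnt2, and -0.428 for Reg4, each on the other side of 0 than with the 4-week colons. Both sets of fold changes share the distal libraries. Experiment, table and any difference in the stretch of colon taken cannot be told apart.

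**Figure D5:**
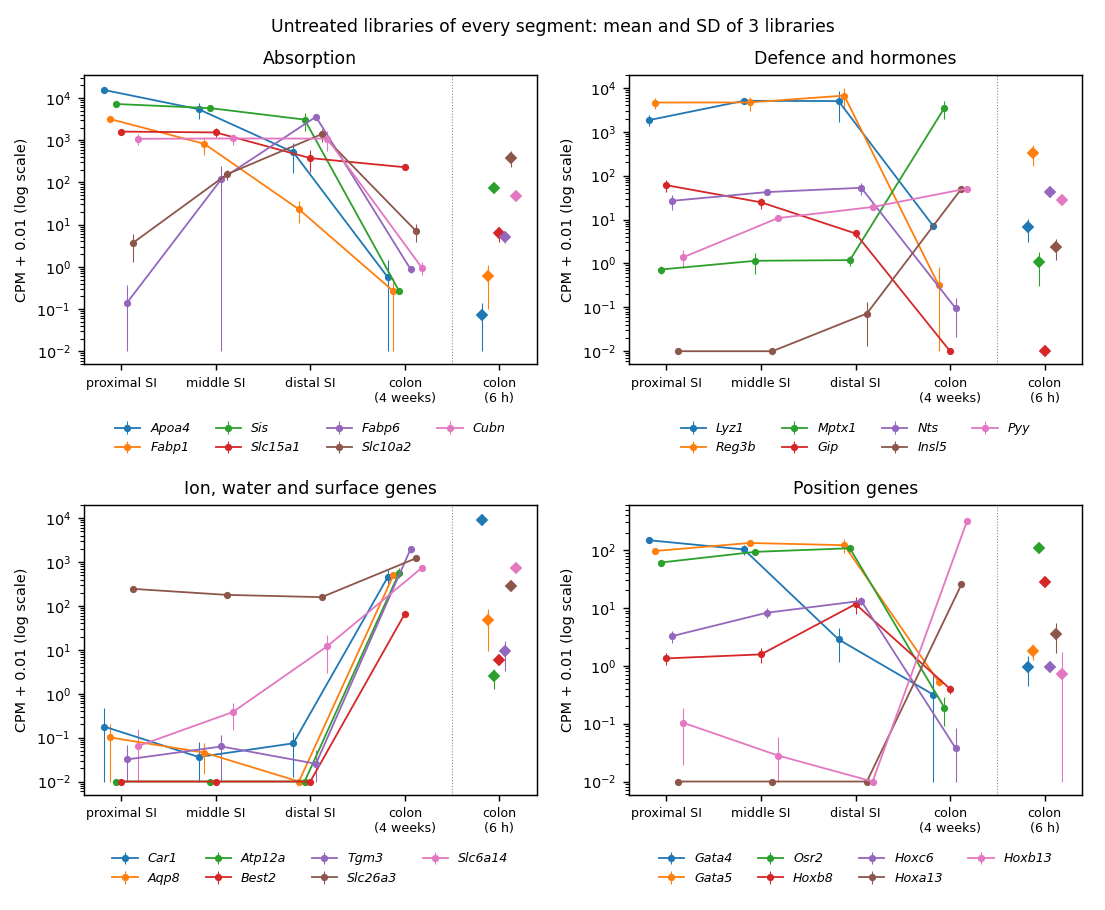
Mean CPM plus 0.01 on a log axis of 28 genes in control libraries, with SD bars (n = 3), from proximal to distal small intestine and colon of the 4-week experiment (circles joined by lines) and, right of the dotted line, colon of the 6 h experiment (diamonds). Bars that reach the bottom line are those whose SD is at least the mean. Fabp6 and Slc10a2 peak in distal small intestine, Aqp8, Atp12a, Tgm3 and Hoxb13 are high in the 4-week colon and lower in the 6 h colon, and Car1 and Hoxb8 are higher in the 6 h colon.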

How the data were processed

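Bulk RNA-seq counts were taken from the deposited tables of raw gene counts, 1 table per tissue and experiment. Per the labels' protocols, RNeasy columns gave total RNA, and a TruSeq Stranded mRNA kit made the libraries. In the submitters' processing notes the builds mm10 and GRCm39 stand beside the tools HISAT2, StringTie, Trimmomatic and FastQC, without roles. The sources used here do not say whether counting used strand.

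The distal small intestine and colon tables were joined by gene symbol, which kept 45751 of 45777 symbols, the other 26 being symbols turned into dates. Genes read as pancreatic were left out: 37 of a fixed list, and 52 with at least 1 CPM in colon library 3 and at least 10 times the highest CPM of the other 8 libraries of the 4-week colon table, 59 in all. The second rule used levels alone, whether or not a gene is known from pancreas. Genes passing filterByExpr were fitted with edgeR 4.0.16 (quasi-likelihood F test, TMM scaling, Benjamini-Hochberg over all genes, adjusted p under 0.05; R 4.3.3). The SE was derived from the fold change and the F statistic. DESeq2 1.42.0, other scalings, no filter, a replicate block, more libraries, the 6 h colons, the pancreatic genes kept and each library left out in turn were the alternatives. On simulated data with 17942 genes, 100 were changed by 1 on the log2 scale and 100 by 2. The edgeR test recovered 46% of the first and 92% of the second, and 6.76% of its calls were false. Far fewer genes were changed there than were called between the organs, so these shares need not hold for this comparison.

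The labels give the replicate number as a batch, so equal numbers pair libraries across the organs by label. Same-numbered libraries deviated from the means of their groups with correlations of 0.105, 0.115 and 0.0601 over genes, and those of other pairs at -0.132 to 0.0175. Replicates differed by more than sampling noise (chi-square per gene 26.3 to 178). The members and gene lists were chosen with earlier results of these data known, so no list has a p-value. Some genes that these rules name are not reported here. Genes were named by 3 rules: the 15 largest called changes each way with at least 5 CPM, the 3 smallest p-values each way in each list, and a written set. Ciita, Gpbar1, Hsd11b2, Nod1, Npc1l1, Nr0b2, Nr1h4, Plin2, Scarb1, Slc27a5, Slc3a1, Tmprss15, Treh and some Hox genes outside these rules were added to complete a family or pathway after their values were seen. Sequences are from RefSeq promoters of GRCm38.p6, and 13240 of the 18297 genes tested had one.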

Additional observations from a re-analysis of the deposited data

How the results depend on the processing

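The count of genes called stayed within 1.5 times of 7440 in all alternatives: 7426 with RLE scaling, 7957 with library totals, 10637 with epithelial scaling, 8056 with DESeq2, 7045 without the filter, 6472 with the replicate block, 8236 with 12 libraries in the fit, 8011 with the 6 h colons, 7444 with the pancreatic genes kept, and 5235 to 8428 with 1 library left out. With epithelial scaling 8996 were higher in colon and 1641 in distal small intestine, 4783 and 1231 of them at least 2-fold. With 1 library left out, 2444 to 4124 were higher in colon and 2791 to 4304 in distal small intestine, and 1563 to 2078 and 1948 to 2317 at least 2-fold (3511 to 4395 in all). The genes behind these counts were not all the same. With the 6 h colons, 4619 of the 7246 main calls tested again were called in the same direction and 165 in the opposite one. The sign turned for 763. With epithelial scaling, 5183 of the 7440 main calls were called in the same direction and 24 in the opposite one. There the sign turned for 927.

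A list median is given here as turned only where both values exceeded the spread of the list's mean level between libraries of a group. Medians smaller than that spread are not listed, even where their sign changed. Medians of log2 fold changes that turned in this way with epithelial scaling were mineral and metal transport 0.219, mitochondrial fatty acid oxidation 0.233, respiratory chain 0.492, intestinal transcription factors 0.304, pattern recognition receptors 0.186 and stem cell markers 0.42, and single genes Ano7 0.186, Cr2 0.224, Hnf4a 0.316, Mylk 0.111, Ndufa2 0.223 and Zg16 0.306. With the 6 h colons the medians of mineral and metal transport 0.133, drug-metabolising enzymes and efflux pumps 0.532 and respiratory chain 0.246 turned, and the genes Ano7 0.559, B4galnt1 0.0682, B4galnt2 0.741, Cftr -0.169, Clca1 -0.339, Ctss -0.299, Fdft1 0.0128, Hoxb7 0.407, Hoxb8 1.23, Isx 0.383, Mptx1 -0.149, Ndufa2 0.635, Ppara 0.52, Prox1 0.0252, Reg4 -0.428, S100g 4.22, Saa1 -0.316, Slc46a1 -0.463, Slc5a8 -1.37, Sst 0.108, Thy1 0.199, Ttpa -0.35, Ttr -0.161 and Ugt2b5 1.28. With the replicate number as a block, a pairing by label, Cr2 2.6 and Muc2 -0.00213 turned. Leaving out distal library 3 turned Cr2 4.95, distal library 1 Slc5a8 -0.161, colon library 1 Slc5a8 -0.0334 and colon library 2 Muc2 -0.184. With 1 library left out at a time, the log2 fold change ranged from -0.989 to 4.95 for Cr2, -0.184 to 0.201 for Muc2 and -0.161 to 0.22 for Slc5a8. The cause was not tested.
Beside the named genes given above, the replicate block ended calls of Cldn4, Ctss, Dhcr7, Krt18, Mylk, Rdh10 and Uqcrb, and it changed no other call among named genes apart from Epcam and Retnlb. Segment cannot be told apart from table, 3 libraries a group limit small differences, and genes with few counts in 1 organ have fold changes that depend on 1 library. Where the library left out held all counts of its group, the fit compares with 0 counts, and the size of its fold change is not an estimate. This was so for Cyp2d34, Cyp3a25, Defa24, Hoxc6, Reg3b, Slc2a2 and Tgm3.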

Other observations

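Several cell type lists that bear on no comparison above moved with single libraries. Of 17 endothelial markers, 1 was higher in distal small intestine and 0 in colon by edgeR, and without distal library 1, where their summed level was 507 CPM against 192 and 225, 7 were higher in colon. Adipocyte and mesothelial markers summed to 110, 605 and 205 CPM in distal small intestine and to 104, 163 and 129 CPM in colon. In that list 3 of 13 were higher in distal small intestine, 8 without distal library 1 and 1 without distal library 2 or colon library 1 or 3. Red blood cell markers summed to 133, 27.7 and 19.4 CPM in distal small intestine and to 18.4, 14.9 and 16 CPM in colon. edgeR called 0 of 5, 4 of which had an unadjusted p under 0.05, and it called all 5 higher in distal small intestine without distal library 3.

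Tuft cell markers, of the chemosensory cells of the epithelium, were higher in distal small intestine for 2 of 14 and higher in colon for 1, and for 5 in distal small intestine without distal library 1. Their summed level was 142 to 159 CPM in distal small intestine and 110 to 138 CPM in colon. M cell and follicle epithelium markers were higher in distal small intestine for 4 of 8, with 0 in colon, or 3 without distal library 3. Mast cell markers stayed below 10 CPM in sum in every library, with 2 of 4 higher in distal small intestine and 1 in colon. Liver and kidney markers, checked for tissue carried over, summed to 4.33, 5.20 and 8.39 CPM in distal small intestine and to 22.7, 17.5 and 17.2 CPM in colon. Most of the colon sum was Ttr, at 21.97, 16.2 and 16.5 CPM, the 1 of 4 tested genes that was higher in colon, while Apoh (-3.21) and Serpina1a (-4.47) were higher in distal small intestine (median -1.28).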
